A study of Mus musculus with 9 samples.

Results

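The 4 Hox clusters of the mouse were followed through 703 CpGs in 3 stages of the B cell lineage. The CpGs are those with at least 10 reads in each of 9 libraries whose nearest gene start, by the deposited annotation, belongs to a gene of Hoxa, Hoxb, Hoxc or Hoxd. They are 703 of the 1718 deposited CpGs with such a gene and of 356320 CpGs that passed the same coverage rule. Hoxa on chromosome 6 held 139 of them, Hoxb on chromosome 11 held 199, Hoxc on chromosome 15 held 225 and Hoxd on chromosome 2 held 140, next to 38 genes in all. CpGs assigned to the antisense transcripts Hoxa11os (29 tested) and Hoxaas3 (14 tested) do not carry a name of this form and were not counted.

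The assay was reduced representation bisulfite sequencing, which reads CpG-rich fragments cut by the enzyme MspI. All cells were sorted from the spleen, and the mice were C57Bl/6J females at an age of 10 weeks. Naive B cells, sorted as B220+ CD43-, were from control animals without treatment, while plasmablasts (CD138+ with intermediate B220) and plasma cells (CD138+ with low B220) were taken 3 days after the bacterial agent LPS was given; each group has 3 libraries. The labels do not tie libraries to animals, so the p-values of loci, segments and cluster means measure the spread between libraries, which may be technical. Those of single CpGs rest on read counts and on 1 estimate of the extra spread shared by all CpGs. At the start sites of the B cell gene Cd79b, the mean level was 2.37% for naive B cells, 3.19% for plasmablasts and 0.643% for plasma cells, and at Sdc1, which encodes CD138, it was 0.910%, 3.32% and 1.41%; Cd2, the T cell marker with tested CpGs there, stood at 56.7%, 51.8% and 32.9%. Kit and Tal1, listed as erythroid and stem cell markers, were also low, at 2.08%, 4.46% and 0.816% and at 4.84%, 5.99% and 3.04%. A low level at a start therefore did not set cell types apart. Other T cell markers and all myeloid markers of the list had no tested CpG near a start, and expression was not measured.

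Hox genes encode homeodomain transcription factors that set position along the body axis in the embryo. They lie side by side in clusters, numbered along the cluster, and genes of the same number in different clusters are paralogs. In cells that do not use them the clusters are typically held silent by Polycomb complexes and their dense CpG islands stay free of DNA methylation; in blood, members such as Hoxa9, Hoxa10 and Hoxb4 act in stem and progenitor cells and are turned down as cells mature. A level between 0% and 100% in a sorted population may be a share of cells or of alleles, and these cannot be told apart here.

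To show what the assay reads in these clusters, 2 start sites are printed, those whose deposited CpG positions all fell on a CG of the RefSeq window (build GRCm38.p6) and that hold members. Each line is the 250 bases before the start, on the plus strand, from chr2:74721728-74721977 for Hoxd4 and chr2:74762730-74762979 for Hoxd1, with every CG in capitals.
Hoxd4: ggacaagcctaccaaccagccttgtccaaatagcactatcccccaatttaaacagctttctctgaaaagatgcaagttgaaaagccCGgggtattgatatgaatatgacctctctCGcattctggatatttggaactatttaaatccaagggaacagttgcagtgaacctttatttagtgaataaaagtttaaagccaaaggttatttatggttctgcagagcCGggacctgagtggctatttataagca
Hoxd1: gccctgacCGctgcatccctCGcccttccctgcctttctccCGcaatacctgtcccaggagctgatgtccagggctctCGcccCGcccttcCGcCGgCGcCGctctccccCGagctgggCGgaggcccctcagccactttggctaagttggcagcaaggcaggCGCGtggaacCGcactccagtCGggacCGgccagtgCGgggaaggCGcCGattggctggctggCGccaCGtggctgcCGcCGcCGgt

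The Hoxd1 stretch holds 24 CG and the Hoxd4 stretch 3. In Hoxd4 the CG 27 bases before the start is a member, and its level was 20%, 28.6% and 19.1% in the naive libraries, 17.6%, 30.3% and 30.4% in those of plasmablasts and 22.1%, 13.4% and 18.1% in those of plasma cells, each in the order 1 to 3 that is kept throughout. The 3 groups overlapped there. In Hoxd1 the member CG 4 bases before the start averaged 4.67%, 12.9% and 4.29% in the 3 groups in turn. Over all 6 members within the 300-base window of Hoxd1, which extends 50 bases past the start, the means were 4.16% ± 2.72, 5.60% ± 2.92 and 2.93% ± 0.866 (SD, n = 3 libraries), against 17.7% ± 2.65, 17.9% ± 4.83 and 13.4% ± 2.30 over the 2 members of the Hoxd4 window. Across the 24 RefSeq windows of 22 Hox genes the median was 14.5 CG, against 7 over all 32851 windows outside chromosome 18. The MspI site CCGG, which reads the same on both strands and contains a CG, was present in 79.2% of the Hox windows and in 52.8% of all windows.

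Reads over the 703 CpGs totalled 16458 to 30029 per library, with a median of 21 to 39 reads per CpG. The libraries formed 2 sets where methylation was close to nothing. Over 77913 CpGs outside the clusters with a mean under 5%, naive B cells 1 stood at 0.746% and plasma cells at 1.06% to 1.16%, whereas naive B cells 2 and 3 stood at 3.13% and 2.62% and plasmablasts at 2.08% to 6.11%. Over 18 mitochondrial CpGs the same sets stood apart, with 0.332% to 1.05% in the first set and 2.77% to 7.18% in the other. Of the 703 Hox CpGs 274 had a mean under 5% over the 9 libraries, and the part of this background in the differences between groups was not tested beyond the alternatives given with each result.

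The Hox clusters were weakly methylated at every stage. Of the 703 CpGs 284 were under 5% in naive B cells, 291 lay between 5% and 20%, 93 between 20% and 80%, and 35 higher, at 80% or above. So 81.8% of the Hox CpGs were under 20%, against 30.7% of all tested CpGs, of which 57.4% were at 80% or above. Their mean level was 12.9%, 16.3% and 15.8% in the naive libraries. The plasmablast libraries gave 13.2%, 17.3% and 13.7%, and the plasma cell libraries 11.2%, 9.71% and 10.2%. The plasma cell libraries lay below all others, while naive B cells and plasmablasts overlapped. All other tested CpGs averaged 62.5% ± 1.23, 54.9% ± 1.16 and 49.9% ± 1.77 in the 3 groups (SD, n = 3).

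**Figure D1:**
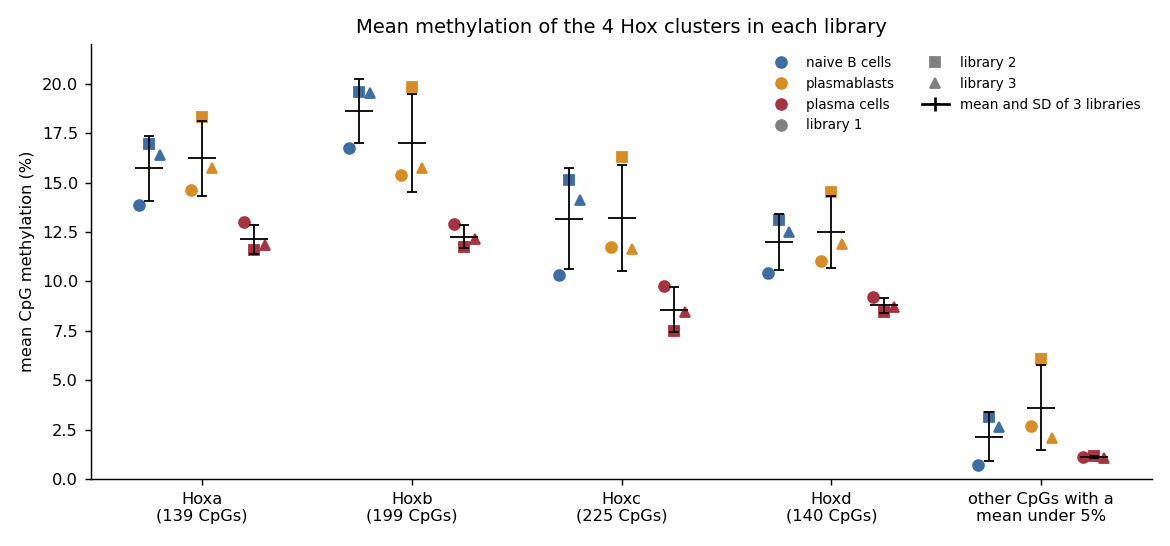
Mean methylation (%) of the CpGs of each Hox cluster in each of the 9 libraries, with the mean and SD of the 3 libraries of a group; the last column shows CpGs outside the clusters with a mean under 5%. Plasma cell libraries are lowest in each cluster, and naive B cells 1 is the lowest naive library, also in the last column.

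In Hoxa the naive libraries gave a mean of 13.9%, 16.95% and 16.4%, the plasmablast libraries 14.6%, 18.3% and 15.8%, and the plasma cell libraries 12.98%, 11.6% and 11.8%. Hoxb stood highest in naive B cells, with 16.8%, 19.6% and 19.5%; plasmablasts gave 15.4%, 19.8% and 15.7%, and plasma cells 12.9%, 11.7% and 12.1%. The naive libraries of Hoxc gave 10.3%, 15.1% and 14.1%, the plasmablast libraries 11.7%, 16.3% and 11.6%, and the plasma cell libraries 9.77%, 7.51% and 8.47%. Hoxd gave 10.4%, 13.1% and 12.5%, then 11.1%, 14.5% and 11.9%, then 9.20%, 8.46% and 8.70% in the same order. In every cluster the highest plasma cell library was below the lowest naive library, by less than 1 point in Hoxa and Hoxc, whereas plasmablasts and naive B cells overlapped in all 4.

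Over all their CpGs, Hoxa and Hoxb were above the other clusters. Hoxb exceeded Hoxc and Hoxd in 9 of 9 libraries, and Hoxa did so too. Hoxa minus Hoxb was -2.91, -2.61 and -3.14 points in the naive libraries, so Hoxb was higher in each. In the plasma cell libraries it was 0.10, -0.13 and -0.32 points, with no common sign. Hoxc and Hoxd changed places between libraries, with Hoxc higher in 5 of 9.

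The question of whether the clusters changed alike was asked with the difference between cluster means inside each library, which removes a background that they share, by an exact permutation test over the 3 groups. Of 6 pairs 2 changed unequally after Benjamini-Hochberg adjustment. Hoxb exceeded Hoxd by 6.60 points ± 0.367 at the naive stage, 4.49 ± 0.751 as plasmablasts and 3.46 ± 0.205 as plasma cells (SD, n = 3; adjusted p = 0.0214, from p = 0.00357, the smallest the permutations allow). For Hoxa minus Hoxb the difference was -2.89 points ± 0.266, -0.76 ± 0.786 and -0.12 ± 0.209 (exact permutation, adjusted p = 0.0321). Hoxb minus Hoxc was 5.43, 3.77 and 3.67 points (exact permutation, adjusted p = 0.0714), and the other 3 pairs gave adjusted p of 0.343 to 0.418 in the same exact test. The call for Hoxb and Hoxd was lost without naive B cells 3 (adjusted p = 0.0643 in the exact permutation test) and at a coverage of at least 20 reads (exact permutation, adjusted p = 0.386), where the change from naive B cells to plasma cells was -1.65 points in place of -3.14. The call for Hoxa and Hoxb was lost when naive B cells 3 or plasmablasts 2 (0.0643 each) were left out, without plasma cells 1 (0.0536), and with reads summed over the CpGs of a cluster (0.171).

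The 2 pairs were also called over the CpGs beyond 1000 bp of a start site (adjusted p = 0.0429 for each, exact permutation), but not near start sites. Within 1000 bp, 319 Hox CpGs averaged 5.89%, 8.88% and 8.97% in the naive libraries, 7.39%, 11.8% and 8.13% in those of plasmablasts and 6.38%, 5.31% and 5.63% in those of plasma cells; plasma cell and naive libraries overlapped. No pair of clusters was called there (smallest adjusted p = 0.107, exact permutation). The Hoxb CpGs near start sites were the lowest, at 4.27% ± 1.79 for naive B cells and 2.40% ± 0.0708 for plasma cells, while Hoxa (8.19%), Hoxc (8.58%) and Hoxd (9.25%) stood at similar naive levels. Beyond 1000 bp the 384 Hox CpGs gave 18.6%, 22.5% and 21.4% in the naive libraries, 18.03%, 21.9% and 18.2% in those of plasmablasts and 15.2%, 13.4% and 14.03% in those of plasma cells, without overlap between plasma and naive libraries. In that range Hoxb went from 24.4% to 16.2%, Hoxa from 23.2% to 17.6%, Hoxc from 17.3% to 10.7% and Hoxd from 16.6% to 12.1% between naive B cells and plasma cells.

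Over all 703 CpGs plasma cells minus naive B cells was -4.62 points and plasmablasts minus naive B cells -0.25 points (p = 0.1, which is the lowest that 3 against 3 can give, and p = 1, by exact two-sided permutation tests). Across the 3 groups the exact permutation test gave p = 0.0679. With naive B cells 1 alone, the naive library of low background, the plasma cell difference was -2.49 points, which has no test. Hox CpGs changed less in points than their surroundings. They started lower, which leaves fewer points to lose, and the gaps below were not tested at equal starting levels. Under 5% at the naive stage, plasma cells minus naive B cells averaged -0.075 points in Hox CpGs and -0.51 in other CpGs. From 5% to 20% these means were -3.36 and -3.47 points, and from 20% to 80% -14.3 and -17.1. At 80% or above they were -21.3 and -17.3 points. The means by starting level were not compared by a test. The 1042 tested CpGs within 500 kb outside the clusters went from 54.7% to 42.9%, and Hox minus flanks went from -39.7 points ± 0.565 to -32.6 ± 1.28 (SD, n = 3; exact permutation over 3 groups, p = 0.0143). The gap to all other CpGs narrowed by 7.99 points (p = 0.0214, exact permutation) and that to 4175 CpGs of other Polycomb-regulated developmental genes, such as those of the Pax, Lhx and Dlx families, by 2.95 points (p = 0.025, exact permutation). Within 1000 bp of start sites the gap to all other CpGs still narrowed, by 1.99 points (exact permutation p = 0.00357). There the gap to the flanks changed by 0.70 points and that to the developmental genes by -0.16 points, neither called by the exact permutation test (p = 0.232 and 0.532).

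As a share of the naive level the order was different. Plasma cells had 30.8% less than the naive mean in Hox CpGs and 20.2% less in all other CpGs. Against naive B cells 1 alone these shares were 19.4% and 18.3%, with 19.3% in the flanks and 19.0% in the developmental genes. By cluster the share of the naive mean was 22.8% in Hoxa, 34.2% in Hoxb, 34.9% in Hoxc and 26.8% in Hoxd. Hoxb and Hoxc were thus alike by this measure. By cluster the share against naive B cells 1 was 12.4% in Hoxa, 26.9% in Hoxb, 16.8% in Hoxc and 15.6% in Hoxd. Near Hox start sites plasma cells minus naive B cells 1 was -0.11 points. These shares are a description, with 1 naive library on one side.

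Single CpGs were called lower at an adjusted p under 0.01 and a loss of at least 20 points. In plasma cells against naive B cells 34 of the 703 Hox CpGs (4.84%) fell, where 22.6% of all tested CpGs were called lower. Hoxb held 20 of the 34, Hoxc 7, Hoxa 4 and Hoxd 3. Every one of the 34 lay beyond 1000 bp of a start site and above 20% in naive B cells. Among the most methylated CpGs, 80% or above at the naive stage, 17 of 35 Hox CpGs (48.6%) were lower and 33.2% of the other CpGs; between 20% and 80% the counts were 17 of 93 (18.3%) and 29.9%. These shares were not compared by a test. In 29 of the 34 every plasma cell library lay below every naive library. With the spread estimated from all CpGs, as first planned, 18 of the 34 were called, and with the background set of the library as a term in the fit 15 were.

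**Figure D2:**
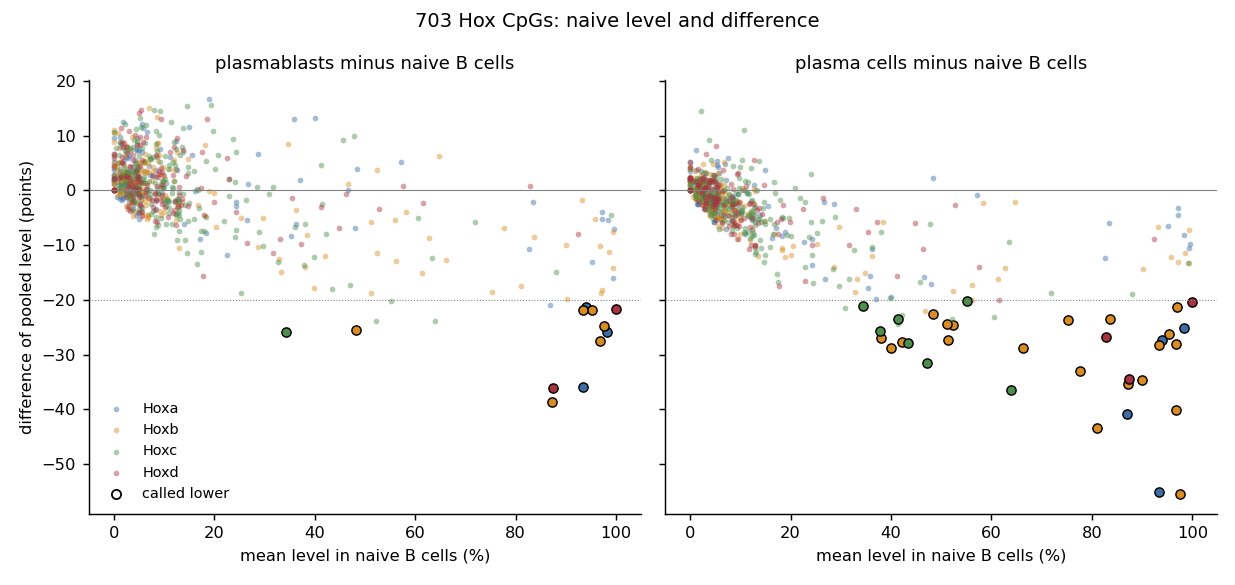
Difference of pooled level (points) against the mean level in naive B cells (%) for each of the 703 Hox CpGs, for plasmablasts at the left and plasma cells at the right; outlined points were called lower and the dotted line marks a loss of 20 points. Called CpGs are those of higher naive level, and most points gather under 20%.

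Both of the largest losses in plasma cells were in introns. One CpG of Hoxb3, at mm9 chr11:96199886, annotated to an intron at -5196 bp from the nearest start, stood at 97.5%, 95.1% and 100% in the naive libraries. Plasmablasts gave 65.5%, 78.3% and 72.4% there and plasma cells 53.1%, 23.5% and 41.7%, so that the 3 groups did not overlap. The pooled level fell by 55.5 points in plasma cells (quasi-binomial model, adjusted p = 1.59e-15; 146 naive and 73 plasma cell reads). An intronic CpG of Hoxa4, chr6:52134740, was at 84.6%, 97.9% and 97.6% in the naive libraries, 61.3%, 65.6% and 45.5% in those of plasmablasts and 54.5%, 31.7% and 31.7% in those of plasma cells, and fell by 55.1 points (adjusted p = 2.31e-15). Hoxb3 and Hoxa4 both belong to the anterior and middle part of their clusters.

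In Hoxb2 the CpG chr11:96211274, at -1671 bp from the start, went from 82.9%, 77.6% and 82.6% to 42.9%, 15% and 42.9% in plasma cells, with plasmablasts at 58.7%, 65.5% and 65.0% between them. The exonic CpG of Hoxa2 at chr6:52113435 went from 80.8%, 100% and 80% at the naive stage to 46.5%, 35.8% and 44.8% in plasma cells, and plasmablasts lay at 61.9%, 58.3% and 66.7%. It is the only tested CpG of Hoxa2. In both the plasma cell libraries lay below all 6 others.

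Hoxc CpGs started from lower levels. The CpG at chr15:102815577, at -5392 bp from Hoxc8, had 71.4%, 62.2% and 57.9% in the naive libraries, 33.3%, 41.7% and 45.5% in those of plasmablasts and 30%, 25% and 24.4% in those of plasma cells, without overlap. In an intron of Hoxc9, chr15:102813833 had 30%, 63.9% and 47.4% at the naive stage and 17.6%, 21.7% and 17.4% as plasma cells; plasmablasts, at 33.3%, 36% and 29.4%, overlapped with naive B cells. The first fell by 36.5 points and the second fell by 31.6 points (adjusted p = 8.67e-06 and 0.00187). The Hoxc9 call was lost without naive B cells 2 or plasma cells 3.

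The Hoxd losses all came from an intergenic stretch 27 kb from Hoxd1. At chr2:74628396 naive B cells gave 76.6%, 90% and 95.7%, plasmablasts 43.48%, 56% and 46.2% and plasma cells 59.5%, 54.2% and 38.6%. Only 4 bp away, at chr2:74628400, plasmablasts had 76.9%, 82.9% and 86.4%, within the range of naive B cells with 76.9%, 79.5% and 91.9%, and plasma cells had 60.5%, 48.5% and 55.3%. The first CpG was called lower in both stages, the second in plasma cells against naive B cells and against plasmablasts (-27.6 points, adjusted p = 0.00785). The difference between the neighbours was not tested.

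Plasmablasts showed fewer losses. Of the 703 Hox CpGs 12 (1.71%) were called lower than in naive B cells, against 10.5% of all tested CpGs, and all 12 were also called lower in plasma cells. Their mean was 85.5%, 58.1% and 52.3% in the 3 groups in turn, and 6 of the 12 belong to Hoxb. With the spread estimated from all CpGs 2 remained. Between plasma cells and plasmablasts the CpG of Hoxd1 just described was the only one called lower (0.583% of all tested CpGs were), and it was lost without plasma cells 2 or 3 or any 1 of the plasmablast libraries. The median Hox CpG was 0.84 points higher in plasmablasts than in naive B cells and -2.24 points from them in plasma cells, where the medians of all tested CpGs were -5.88 and -9.62 points.

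No Hox CpG was called higher in any contrast by the quasi-binomial model or by limma. Of all tested CpGs 0.0634% were called higher in plasmablasts than in naive B cells, 0.0443% in plasma cells against naive B cells and 0.000842% in plasma cells against plasmablasts. At an unadjusted p under 0.05, 42 Hox CpGs were higher and 40 lower in plasmablasts, 3 higher and 138 lower in plasma cells, and 2 higher and 152 lower in plasma cells against plasmablasts. The plasmablast libraries are also those of the higher background outside the clusters, whose part in these counts was not tested.

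**Figure D3:**
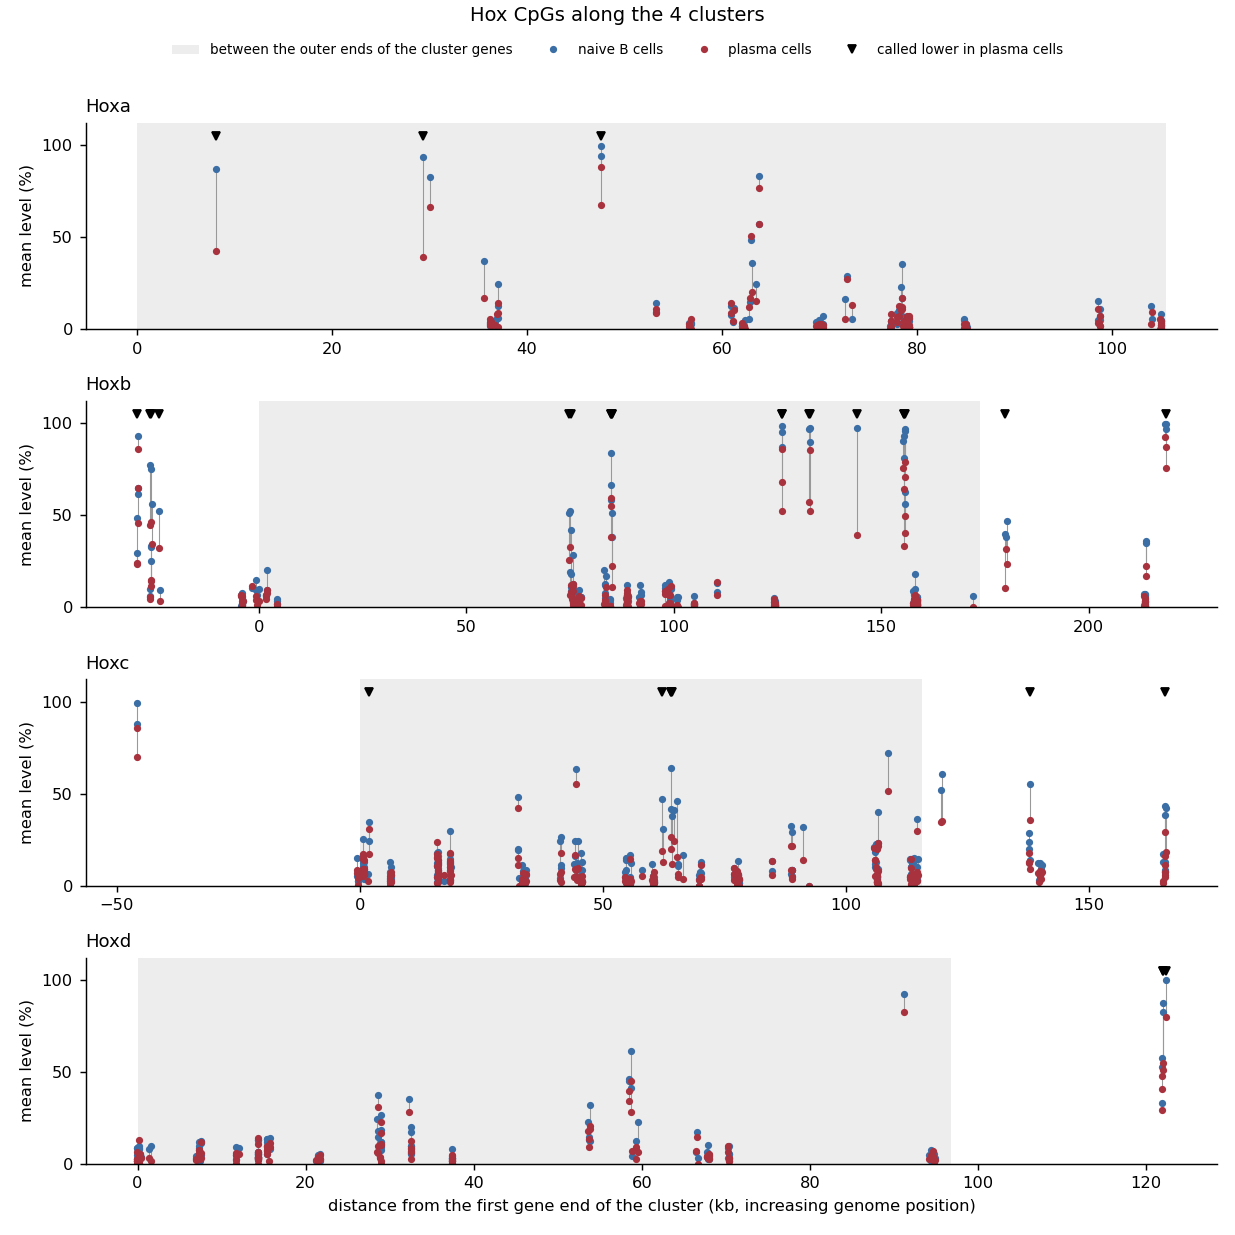
Mean level (%) of the Hox CpGs shown in naive B cells and plasma cells against its distance (kb) from the first gene end of its cluster; grey marks the span between the outer ends of the cluster genes and triangles mark CpGs called lower in plasma cells. Methylated CpGs stand as isolated columns in clusters that are low elsewhere, and in Hoxd all triangles lie outside the genes.

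Members outside the span of the cluster genes, which carry the name of the outermost gene, were more methylated than those inside. The 107 outer CpGs averaged 30.7% ± 2.34, 28.1% ± 2.10 and 21.9% ± 0.901 by group (SD, n = 3), and the 596 inner ones 12.2% ± 1.79, 12.3% ± 2.31 and 8.29% ± 0.737. Plasma cell and naive libraries did not overlap in either set. Of the 34 CpGs called lower in plasma cells 12 were outer and 22 inner, or 11.2% and 3.69% of each set, against 22.6% of all tested CpGs. With inner members alone a repeat chosen after seeing the data, both unequal pairs, Hoxa with Hoxb and Hoxb with Hoxd, gave an adjusted p of 0.0214 in the exact permutation test.

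By annotation, the 192 exonic CpGs were lowest, with a mean of 5.61% for naive B cells and 4.43% for plasma cells, and 1 of them fell. The 154 intergenic CpGs averaged 26.1% and 17.5%, with 16 called lower. Introns (137 CpGs) went from 14.3% to 9.72% with 7 called, and promoters, which the deposited annotation takes from 2500 bp before to 500 bp after the start (153 CpGs), from 14.7% to 9.59% with 7 called. The 14 CpGs in 3′ untranslated regions were the most methylated, at 45.1% and 34.7%, with 3 called. In this order the called shares were 0.521%, 10.4%, 5.11%, 4.58% and 21.4%, where 22.6% of all tested CpGs were called lower. The 3′ class includes CpGs at -29275 bp, a called one, and -29079 bp from the Hoxb13 start. They lie upstream of Hoxb13 and outside the cluster, so the untranslated region there is not that of Hoxb13. The 53 CpGs in 5′ untranslated regions went from 11.2% to 8.55%, with 0 called. The classes differ in naive level, and whether location matters beyond that level was not tested.

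Pooled over the clusters, CpGs fell in order by 3 ranges of gene number, which was not tested. CpGs of genes 1 to 3, which pattern the anterior body, averaged 27.8% ± 1.39 at the naive stage, 25.7% ± 2.69 as plasmablasts and 19.9% ± 0.775 as plasma cells. Genes 4 to 8 stood at 14.8% ± 2.34, 14.3% ± 2.59 and 9.89% ± 1.04. Genes 9 to 13, which pattern the posterior body and the limbs, stood at 10.5% ± 1.74, 11.01% ± 2.02 and 7.21% ± 0.656 (SD, n = 3 for all). In every library the order was the same, and it held among the inner CpGs (20.3%, 14.1% and 8.64% in naive B cells). Hoxc has no gene in the first range, and single genes within a cluster did not follow their number: Hoxa3 stood at 2.37% in naive B cells and Hoxa7 at 17.5%, and Hoxb6 at 4.73% and Hoxb13 at 22.6%. Of the 36 CpGs of Hoxb13, however, only 8 lie inside the cluster.

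**Figure D4:**
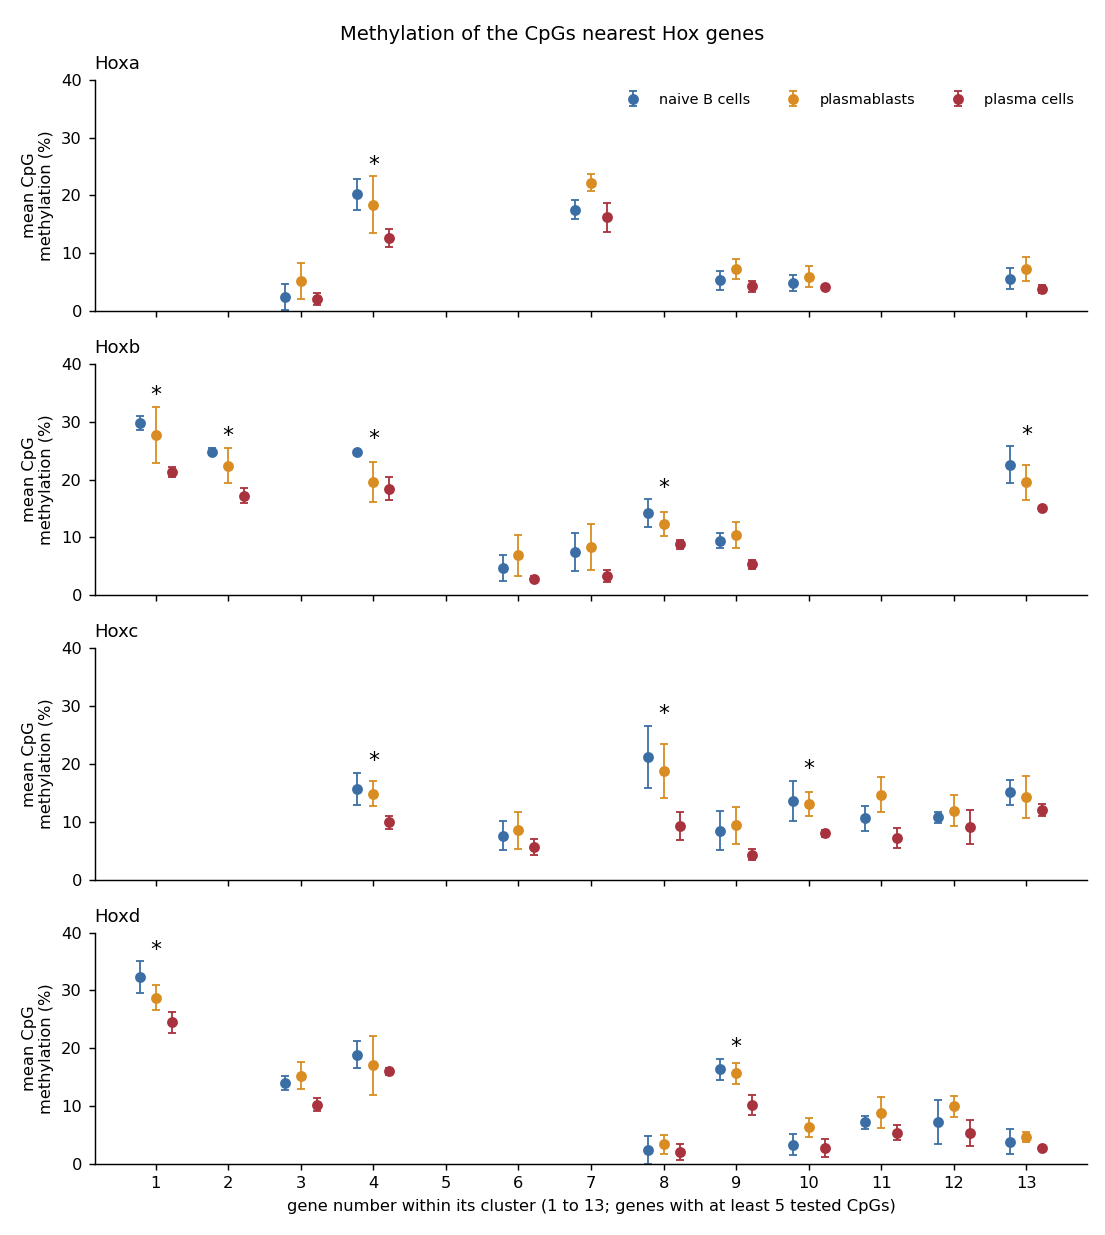
Mean methylation (%) of the CpGs nearest the Hox genes shown, which have at least 5 tested CpGs, by the number of the gene in its cluster; points are means and bars the SD of 3 libraries, and an asterisk marks loci called lower in plasma cells than in naive B cells. Hoxb1 and Hoxd1 have the highest mean over the 9 libraries among the plotted genes of their clusters, and genes 9 to 13 of Hoxa and 10 to 13 of Hoxd stay under 10% in group means.

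Over whole genes, here called loci (all tested CpGs nearest a gene, at least 5), 32 Hox loci were tested with limma. In plasma cells against naive B cells 12 of 32 fell by at least 5 points at an adjusted p under 0.01, where 80.5% of all 14220 loci were called lower. They included Hoxa4, Hoxb1, Hoxb2, Hoxb4, Hoxb8, Hoxb13, Hoxc4, Hoxc8, Hoxc10, Hoxd1 and Hoxd9. The median difference was -3.58 points over the Hox loci and -11.9 points over all loci. All 32 Hox loci lay below 0, from -0.23 points in Hoxa3 to -11.9 in Hoxc8; 99.5% of all loci did. Of the 12 calls 6 held whichever library was left out (Hoxb1, Hoxb2, Hoxb13, Hoxc8 and Hoxd1 among them), 10 held after subtraction of the library background (Hoxb8 and Hoxc10 did not) and 0 with the background set of the library as a term. With reads summed over a locus 5 held, Hoxb1, Hoxb2, Hoxb8 and Hoxb13 among them, with Hoxb2 at -15.9 points and Hoxb8 at -8.87 points. Hoxa4, Hoxb4, Hoxc4, Hoxc8, Hoxc10, Hoxd1 and Hoxd9 were then lost (adjusted p = 0.0122 to 0.524). Calls lost at a coverage of 20 included Hoxb1 and Hoxc4, while Hoxb2 was at -12.6 points, and calls lost at a coverage of 5 included Hoxb4 and Hoxb8.

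Hoxd1, a gene of the anterior end, was the highest locus of its cluster over the CpGs that carry its name. Of these 17 CpGs 11 lie inside the cluster and 10 within 1000 bp of a start site. Its 3 called CpGs, in the stretch 27 kb away, stood at 87.4%, 82.8% and 100% in naive B cells. They were at 50.8%, 54.8% and 79.7% in plasma cells. The 6 members of the start window averaged 4.16% and 2.93% in these groups. All 17 CpGs averaged 29.2%, 33.0% and 34.5% in the naive libraries, 27.8%, 31.2% and 27.3% in those of plasmablasts and 26.6%, 23.2% and 23.6% in those of plasma cells. Plasma cell libraries were below all naive ones, and the difference was -7.77 points (SE 1.74, limma adjusted p = 0.00075). It was -2.28 points and not called with summed reads (quasi-binomial adjusted p = 0.524), -4.71 points and not called with the background set as a term (limma adjusted p = 0.0685), and -15.0 points at a coverage of 20, still called. Hoxd13, the last gene of that cluster, which patterns the digits, was low in all stages, at 3.85%, 4.67% and 2.71%, and Hoxd8 had the lowest mean over the 9 libraries of all 32 loci, at 2.42%, 3.35% and 2.10%. Neither was called. In Hoxd9 the 19 CpGs gave 14.3%, 16.7% and 18.01%, then 13.6%, 16.3% and 17.03%, then 8.69%, 9.90% and 12.1%, and the locus fell by 6.13 points (SE 1.53, adjusted p = 0.00172), a call lost without naive B cells 3 or plasma cells 1. Hoxd11, with the most CpGs (26), averaged 7.15%, 8.85% and 5.41% and was not called. Hoxd4, whose start site is printed above, had 16.2%, 20.5% and 19.97%, then 12.4%, 22.5% and 16.3%, then 15.9%, 16.6% and 15.5% over its 5 CpGs, and missed the threshold (adjusted p = 0.21).

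In Hoxa the locus Hoxa4 was called. It had 17.7%, 19.8% and 23.0%, then 13.4%, 23.2% and 18.6%, then 14.1%, 11.02% and 12.9% in the naive, plasmablast and plasma cell libraries, a difference of -7.48 points (SE 2.15, limma adjusted p = 0.00469). Of its 14 CpGs 12 lie within 1000 bp of a start site. The intronic CpG described above lies beyond and went from 93.4% to 39.3% in plasma cells. So does the intronic CpG chr6:52135381, which went from 82.6% to 66.3%. Over all Hoxa CpGs within 1000 bp plasma cells minus naive B cells was -1.58 points. The call for Hoxa4 was lost without naive B cells 2 or 3 or plasma cells 2 or 3.

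The 5′ genes of Hoxa were low at every stage. Hoxa9, known for its role in blood progenitors, had 3.43%, 6.21% and 6.28% in the naive libraries, 7.43%, 8.97% and 5.52% in those of plasmablasts and 5.04%, 4.54% and 3.20% in those of plasma cells for its 15 CpGs. Hoxa10, with the most CpGs of its cluster (37), had 3.93%, 6.49% and 4.27%, then 4.58%, 7.95% and 5.10%, then 4.31%, 4.41% and 3.75%. In both the plasma cell libraries overlapped with the naive ones, and the adjusted p were 0.485 and 0.609; their small differences of -1.05 and -0.74 points turned positive with the background set as a term (0.83 and 0.23). Hoxa3 was the lowest tested locus of Hoxa, at 2.37%, 5.22% and 2.14%. Hoxa7, at 17.5% ± 1.60, 22.2% ± 1.44 and 16.2% ± 2.49, was the locus most above naive B cells in plasmablasts (4.68 points, SE 1.58, adjusted p = 0.0168, not past the threshold).

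Hoxb had 5 of the 12 called loci. Hoxb1, the highest tested locus of the cluster, had 28.3%, 30.5% and 30.5% in the naive libraries, 22.2%, 29.4% and 31.5% in those of plasmablasts and 21.6%, 21.8% and 20.3% in those of plasma cells, a difference of -8.51 points (SE 1.99, adjusted p = 0.00107). Only 1 of its 18 CpGs lies inside the cluster. Hoxb2 had 24.5%, 25.5% and 24.5%, then 20.98%, 25.9% and 20.3%, then 17.4%, 15.8% and 18.4% (-7.62 points, SE 1.60, adjusted p = 0.000446). Hoxb13, a gene known from prostate and hindgut that is set apart from the rest of the cluster, had 19.1%, 23.3% and 25.4%, then 20.1%, 22.2% and 16.3%, then 15.5%, 14.7% and 14.9% (-7.55 points, SE 1.81, limma adjusted p = 0.00131). Only 8 of the 36 CpGs of Hoxb13 lie inside the cluster. Its 4 called CpGs lie outside, from -29275 to -23934 bp of the start. In all 3 loci plasma cell libraries lay below the naive ones.

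Hoxb4, known for expanding blood stem cells when raised, held 24.3%, 24.9% and 24.97% in the naive libraries, 15.7%, 21.97% and 21.2% in those of plasmablasts and 20.5%, 16.6% and 18.1% in those of plasma cells. It was the Hox locus furthest below naive B cells in plasmablasts (-5.09 points, adjusted p = 0.0174, not past the threshold), and it fell by 6.28 points in plasma cells (SE 1.72, adjusted p = 0.00346), a call lost without naive B cells 2 or 3 or plasma cells 2 or 3. With summed reads the difference was -0.69 points in plasmablasts and -5.83 points in plasma cells, neither called (adjusted p = 0.898 and 0.133), and at a coverage of 5 the plasma cell difference was -3.57 points and not called. Its 2 called CpGs lie in the 3′ untranslated region, at 95.3% and 87.2% in naive B cells and 68.3% and 52.3% in plasma cells. A CpG between them, chr11:96181852, went from 98.6% to 86.2%. Of the 12 Hoxb4 CpGs 9 lie within 1000 bp of a start site, where all Hoxb CpGs averaged 4.27% and 2.40%. The locus mean thus does not describe the gene as a whole. Hoxb6 was the lowest locus of the cluster, at 4.73% ± 2.23, 6.93% ± 3.53 and 2.74% ± 0.531, and was not called (adjusted p = 0.292). Hoxb9, with the most CpGs (39), was at 9.46%, 10.4% and 5.35% in the 3 groups and missed the threshold (adjusted p = 0.0153).

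In Hoxc the locus with the largest difference of all was Hoxc8. Its 15 CpGs gave 14.9%, 23.9% and 24.7% in the naive libraries, 16.1%, 24.2% and 16.02% in those of plasmablasts and 11.96%, 7.83% and 7.90% in those of plasma cells. Naive B cells 1 was close to 2 plasmablast libraries, and plasma cells lay below all 6. The difference was -11.9 points (SE 2.62, adjusted p = 0.000641), and -5.70 (adjusted p = 0.099) with the background set as a term. Hoxc10 had 9.75%, 14.7% and 16.4% at the naive stage, 13.03%, 15.2% and 10.95% as plasmablasts and 7.91%, 7.31% and 8.67% as plasma cells (-5.64 points, SE 1.73, adjusted p = 0.00717), a call lost without any 1 of naive B cells 2 and 3 and the plasma cell libraries.

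Hoxc4, the Hox gene with the most tested CpGs (64), had 13.1%, 18.6% and 15.5% in the naive libraries, 14.1%, 17.2% and 13.2% in those of plasmablasts and 11.01%, 8.81% and 9.84% in those of plasma cells. It fell by 5.84 points (SE 1.64, adjusted p = 0.00397), a call lost without naive B cells 2 or 3 or plasma cells 2 or 3. Hoxc6, at 7.58%, 8.48% and 5.63%, was the lowest locus of the cluster and was not called. Hoxc11 was the 1 Hox locus called lower in plasma cells than in plasmablasts (9.66% of all loci were), with 11.7%, 14.5% and 17.8% in plasmablasts, 8.12%, 5.24% and 8.17% in plasma cells and 8.10%, 11.1% and 12.4% in naive B cells. That call, of -7.50 points (adjusted p = 0.00875), was lost in 6 of the 9 fits that left out 1 library, those without library 2 or 3 of any group, and with summed reads, background subtracted, the background set as a term or a coverage of 5.

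No Hox locus was called lower in plasmablasts than in naive B cells by limma or by the quasi-binomial model of summed reads, where 56.4% of all loci were called lower by limma. At an unadjusted p under 0.05 limma gave 1 lower Hox locus (Hoxb4) and 2 higher ones (Hoxa7 and Hoxc11; named after their values were seen). With summed reads 5 Hox loci were called lower in plasma cells, against 12 with unweighted means.

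Short stretches of at least 5 tested CpGs with gaps of at most 300 bp, here called segments, were tested in the same way. Of 64 Hox segments 55 were under 20% in naive B cells. In plasma cells 9 of 64 fell, where 48.1% of all 22426 segments were called lower, and in plasmablasts 2 of 64, where 31.4% were. With gaps of at most 100 bp 0 of 36 Hox segments were called in either stage, and at a coverage of 20, 0 of 13. None was called lower in plasma cells against plasmablasts by limma (1.04% of all were), and 24 had an unadjusted p under 0.05 there. Of the 9 Hox segments at 20% or above at the naive stage, 7 were among the 9 called, a share not compared with other segments of such levels. In each called segment all plasma cell libraries lay below all naive ones.

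The most changed segment lies upstream of Hoxb2, at mm9 chr11:96211028-96211471, from -1917 to -1474 bp of the start. Its 7 CpGs averaged 85.9%, 81.9% and 79.0% in the naive libraries, 67.8%, 72.5% and 68.3% in those of plasmablasts and 61.6%, 51.7% and 63.9% in those of plasma cells, and the 3 groups did not overlap. The difference was -23.2 points in plasma cells (SE 3.68, limma adjusted p = 2.31e-05) and -12.8 points in plasmablasts (adjusted p = 0.00797). It was the 1 segment whose plasma cell call held with the background set as a term (-26.8 points, adjusted p = 0.00171). The plasmablast call was lost in the fits without any 1 naive or plasmablast library, with a replicate block and at a coverage of 5.

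Far from Hoxb13, at chr11:96029442-96029918, 8 intergenic CpGs went from 36.3%, 35.1% and 47.2% to 24.8%, 19.6% and 21.4% in plasma cells, with plasmablasts at 27.4%, 37.0% and 23.0% (-17.6 points, SE 4.01, adjusted p = 0.000769).

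Both called segments of Hoxc carry the name of Hoxc4 and lie beyond the cluster. At chr15:102889227-102889418 5 CpGs had 29.6%, 30.5% and 24.6% in the naive libraries, 26.7%, 30.8% and 29.5% in those of plasmablasts and 15.9%, 14.4% and 22.2% in those of plasma cells (-10.7 points, SE 3.10, adjusted p = 0.00536). At chr15:102916874-102917421 9 CpGs had 20.2%, 27.7% and 15.5%, then 18.6%, 21.3% and 16.9%, then 11.7%, 9.10% and 11.2% (-10.5 points, SE 2.81, adjusted p = 0.00303). Plasmablasts overlapped with naive B cells in both. The first call was lost without naive B cells 1 or 2 or plasma cells 1 or 2, the second without naive B cells 2 or plasma cells 2.

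In Hoxd the larger change was in the segment chr2:74628221-74628400, which holds the neighbouring CpGs 27 kb from Hoxd1. Its 5 CpGs gave 57.1%, 62.1% and 68.9% in the naive libraries, 50.1%, 53.7% and 52.0% in those of plasmablasts and 50.9%, 41.1% and 41.9% in those of plasma cells (-18.1 points, SE 4.21, adjusted p = 0.000947, lost without naive B cells 3). The segment chr2:74534851-74535365, upstream of Hoxd9, started lower, at 14.2%, 17.3% and 20.5%, and had 8.44%, 10.3% and 11.6% in plasma cells, with plasmablasts at 10.8%, 15.2% and 13.8%. Its call (-7.20 points, adjusted p = 0.00986) was lost in 6 of 9 fits that left out 1 library and at a coverage of 5.

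The authors' deposited table of CpGs that differ between plasmablasts and naive B cells lists 17575 CpGs, of which 10 carry a Hox name at any coverage, and their deposited table for plasma cells lists 96854, of which 44 do. That is 0.582% and 2.56% of the 1718 deposited Hox CpGs, against 1.93% and 10.6% of all 911004 deposited CpGs. All 10 and all 44 were lower than in naive B cells. Members of the tested set made up 6 and 18 of them, and each of these was also called here. The calls here were 12 and 34 in all, so the others are not on the authors' lists. Both rest on the same libraries, so the overlap is not independent support.

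Hox proteins bind DNA with partners of the TALE homeobox family, and Polycomb and Trithorax proteins set the state of the clusters. Among the loci of TALE genes 5 of 8 tested fell in plasma cells and 4 in plasmablasts, with a median naive level of 55.9%. Meis1, a Hoxa9 partner in progenitors, had 54.5%, 57.6% and 57.3% in the naive libraries, 47.7%, 51.0% and 49.0% in those of plasmablasts and 44.2%, 42.2% and 40.1% in those of plasma cells. Of the Polycomb loci 13 of 20 fell in plasma cells and 8 in plasmablasts, and Ezh2, the catalytic subunit, went from 19.2% ± 0.396 to 17.2% ± 1.48 and 13.2% ± 0.490. Trithorax and H3K27 demethylase loci gave 5 and 2 of 7, and the ParaHox genes and the Evx neighbours 5 and 1 of 7. Evx2, which adjoins Hoxd13, stood at 6.92% ± 1.96, 9.65% ± 2.61 and 5.67% ± 0.787. The other Polycomb-regulated developmental genes gave 52 and 12 of 71. As shares of the tested loci all these counts are below the share of all loci called, 80.5% in plasma cells and 56.4% in plasmablasts.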

How the data were processed

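Reduced representation bisulfite sequencing was measured in 9 libraries of sorted mouse spleen cells, grouped by GEO's labels, 3 per stage. Bismark and Bowtie2 with build mm9 are named in the submitters' processing notes, without versions. The authors deposited, for every CpG and library, counts of methylated and unmethylated reads (both strands summed, per the description that accompanies them) and the level as a fraction, equal to methylated over all reads. They also deposited lists of differential CpGs. Library totals were 16037172 to 29948088 reads; since no molecular identifiers mark PCR copies, precision covers counting error only. Levels of replicates correlated at 0.956 to 0.986 and at most 1.29% of tested CpGs held the same counts, so each library is 1 sample.

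The Hox CpGs and all gene lists were chosen with earlier results of these data known. All deposited CpGs with enough reads entered the tests. Levels printed are unweighted means of CpG levels in a library. CpGs were fitted by a quasi-binomial model with 1 level per group in R 4.3.3 (limma 3.58.1); tested differences of CpGs are of pooled reads. The dispersion was to be moderated over all CpGs; that version recovered no change in simulated data, so it was taken from CpGs with a pooled level of 10% to 90%, after the call counts of both versions had been seen. It came to 1.27 for all CpGs, so a CpG's own spread does not enter its p-value. Loci and segments were fitted with limma's trended test on mean levels and called at a loss of at least 5 points. Adjusted p-values are Benjamini-Hochberg over all CpGs, loci or segments, at a threshold of 0.01. For single values per library the test was an exact permutation test, two-sided, (Python 3.11.15, numpy 2.4.6, scipy 1.17.1), at 0.05, with 6 cluster pairs adjusted together. Fits were tested on simulated data.

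Genes named in full were, per cluster, the gene with the most CpGs, those of highest and lowest mean level and the 3 called loci of largest difference in plasma cells, with Hoxa9, Hoxa10, Hoxb4, Hoxb6, Hoxc4 and Hoxd4 always. Named segments were the 2 called with the largest difference per cluster, and named CpGs the 2 with the largest called loss per cluster. 1 locus and 1 segment that these rules select are counted in the totals and are not reported here. Other names and sequences were added after values were seen. Sequences are RefSeq's; of the windows, 2 matched the deposited positions and held tested CpGs. Alternatives cover coverage, background, dispersion, summed reads, region, segment gap, a replicate block and each library left out.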

Additional observations from a re-analysis of the deposited data

How the results depend on the processing

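Of 1833 repeats under another setting 1467 kept direction, size and call. Leaving out 1 library in turn gave 6 to 13 Hox loci and 4 to 12 segments lower in plasma than in naive libraries, 0 to 1 loci and 0 to 2 segments lower in plasmablasts, 0 to 3 loci and 0 to 4 CpGs lower in plasma cells than plasmablasts, and 0 to 1 CpGs higher in plasmablasts. The change from naive B cells to plasma cells ran from 2.64 to 2.91 points in Hoxa minus Hoxb, from -3.26 to -2.93 in Hoxb minus Hoxd and from -1.23 to 0.055 in Hoxa10.

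Replicate numbers were shared by the groups, but whether they pair libraries is not given by the labels. Deviations of same-numbered libraries correlated at -0.029 to 0.030 and those of different numbers at -0.037 to 0.042. These values show no pairing but do not exclude a shared animal. With a replicate block, 34 CpGs, 12 loci and 11 segments were lower in plasma than in naive libraries, 1 segment in plasmablasts, and 0 CpGs in plasma cells than plasmablasts.

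With the background set of the library as a term, 15 CpGs, 0 loci and 1 segment were lower in plasma than in naive libraries, 0 segments in plasmablasts, and 0 CpGs and 0 loci in plasma cells than plasmablasts; Hoxa9, Hoxa10 and Hoxb6 turned to 0.83, 0.23 and 0.19 points. With each library's mean over low CpGs outside the clusters subtracted, plasma cells minus plasmablasts was -2.18 points over all Hox CpGs and -1.92, -2.60, -2.41 and -1.44 in Hoxa to Hoxd, 1 locus was lower in plasmablasts and 0 loci in plasma cells than plasmablasts, and Hoxa10 was at 0.29. With the mitochondrial background subtracted these differences were -1.39, -1.15, -1.84, -1.61 and -0.63; against naive B cells plasma cells were at -2.25 in Hoxa, -5.10 in Hoxb and -1.82 in Hoxd, and plasmablasts at -1.19 in Hoxd. Against naive B cells 1 alone plasma cells were at -2.49 over all, and -1.72, -4.51, -1.73 and -1.62 in Hoxa to Hoxd.

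Within 1000 bp of start sites plasma cells were at -2.13 over all, -1.58 in Hoxa, -1.87 in Hoxb and -2.36 in Hoxc, and plasmablasts at 1.59 in Hoxb. There the changes in the cluster differences were 0.30 for Hoxa minus Hoxb, 0.90 for Hoxa minus Hoxd, 0.48 for Hoxb minus Hoxc, 0.60 for Hoxb minus Hoxd and 0.12 for Hoxc minus Hoxd, 0.70 for Hox minus flanks and -0.16 for Hox minus developmental genes. Beyond 1000 bp plasma cells were at -6.69 over all and -5.57, -8.16, -6.60 and -4.45 in Hoxa to Hoxd, and Hoxa minus Hoxd, at -1.12, was called. With all tested CpGs between the outermost members Hoxb minus Hoxc, at -2.28, was called, as it was at a coverage of 5 (-2.35).

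Summed reads gave -6.73 over all, -8.17 in Hoxa and -10.2 in Hoxb for plasma cells against naive B cells, -1.999 for Hoxa in plasmablasts, and -6.17 and -7.67 for Hoxa and Hoxb in plasma cells against plasmablasts. Hoxa minus Hoxb was then 2.03 and lost its call, Hoxa minus Hoxc -3.67, and Hoxb minus Hoxc -5.71, which was called; 5 loci were lower in plasma than in naive libraries and 0 than plasmablasts. At a coverage of 20, with 214 Hox CpGs, plasma cells were at -7.75 in Hoxb and -6.11 in Hoxd against naive B cells and -5.62 in Hoxd against plasmablasts, Hoxb minus Hoxd was -1.65 and lost its call, and Hoxa minus Hoxc, Hoxa minus Hoxd and Hoxc minus Hoxd were -0.71, 1.58 and 2.29. That coverage gave 15 CpGs and 0 of 13 segments in plasma cells and 7 CpGs and 0 segments in plasmablasts, and a coverage of 5 gave 56 CpGs and 15 segments, and 1 locus and 5 segments. Gaps of at most 100 bp gave 0 of 36 segments in either stage.

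Under a minimum of 10 points, 3 Hox CpGs were higher in plasmablasts, 2 CpGs were lower in plasma cells than plasmablasts, 1 locus was lower in plasma than in naive libraries and 0 than plasmablasts. The dispersion moderated over all CpGs, as first planned, gave 2, 18 and 0 lower CpGs for plasmablasts, plasma cells and plasma cells against plasmablasts, and limma gave 0 for the last. The dispersion behind the reported CpG calls was chosen after seeing the data, with the counts of both versions known. Unless said above, the cause of these shifts was not tested. The 274 Hox CpGs with a mean under 5% over the 9 libraries lie too low for a loss of 20 points.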
